A study of Mus musculus with 28 samples.

Results

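The 88 cytosolic ribosomal protein genes of the mouse were followed in retinal microglia through endotoxin-induced uveitis (EIU). They were taken by gene symbol from the 40021 genes of the expression table: Rps and Rpl symbols with a number and an optional a, x, l or similar ending, together with Rpsa, Rplp0, Rplp1 and Rplp2. The 34 Rps genes encode proteins of the small subunit and the 54 Rpl genes proteins of the large subunit. Symbols of pseudogene form (-ps) and the mitochondrial Mrp genes were left out. GENCODE M21 (GRCm38) placed all 88 genes on 19 chromosomes, with 15 on chromosome 7, and called 84 protein-coding. The other 4 are processed pseudogenes there despite their symbols: Rpl32l, Rpl6l, Rps12l1 and Rps4l. A gene was tested when it reached an RPKM (reads scaled to transcript length and to the depth of the library) of at least 1 in at least 5 of 28 retinas, which kept 84 of the 88 genes (34 small, 50 large) among 13164 genes in all. Rpl10l, Rpl32l, Rpl3l and Rpl6l were too low. Of the 84, 83 would pass without the 18 h retinas, and Rpl39l is the exception.

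All mice were male C57BL/6 heterozygotes for Cx3cr1CreER:R26-tdTomato, in which tamoxifen activates a Cre recombinase expressed from the Cx3cr1 promoter and so turns on a red fluorescent reporter in microglia. Young adult animals received an intravitreal injection of lipopolysaccharide (LPS), which causes EIU, or were left naïve. The dye-excluding, tdTomato-high cells of 1 retina were sorted and their mRNA amplified and sequenced as 1 sample. The groups held 10 (naïve), 6 (4 h after LPS), 5 (18 h) and 7 (2 weeks) retinas, from 2 experiments with every group in both, although 18 h had a single retina in experiment 2. The reporter marks cells with a history of Cx3cr1 promoter activity, so other Cx3cr1-expressing leucocytes can carry it. The authors examined this by flow cytometry at 18 h. With the topical tamoxifen regime they chose, they reported high specificity of the reporter for microglia. They also found no significant difference in the number of tagged cells between naïve and 18 h retinas. Left and right eyes were not linked to mice in the labels, and the p-values therefore measure the spread between retinas.

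Each retina gave 7510000 to 19700000 alignments and 6552 to 11825 genes at an RPKM of at least 1. All 12 microglial marker genes passed the filter. At 18 h 2 of them had a higher and 10 a lower mean than in naïve retinas, 7 of these as down-regulated DEGs, with a median log2 fold change of -1.21. P2ry12 was at 866 to 2714 RPKM in naïve retinas and 88.3 to 360.3 at 18 h, whereas Cx3cr1 overlapped, at 45.2 to 318 and 43.0 to 98.2, and Aif1 was at 251 to 1321 and 912 to 2393. Of the markers of other cells, 1 of 11 for neutrophils, 3 of 10 for monocytes, 2 of 12 for lymphocytes and all 12 for rods passed. Summed rod marker RPKM was 857 to 7869 in naïve retinas and 751 to 3302 at 18 h. Fewer than 7500 genes were detected at that level in 4 retinas, namely naïve retinas 3 and 4, 18 h retina 4 and 2-week retina 1. In a bulk sample, fewer cells of a type and less RNA per cell cannot be told apart.

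A ribosome is built from a small subunit, which reads the mRNA, and a large subunit, which joins amino acids into protein, and, the stalk proteins aside, each core protein is present once per ribosome. In vertebrates most ribosomal protein mRNAs begin with a C followed by a run of pyrimidines, the 5′ terminal oligopyrimidine (TOP) tract, through which mTOR signalling controls their translation together. Activated macrophages and microglia are known to raise protein synthesis when they make cytokines, complement and antigen presentation machinery.

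The tract was looked for around the transcription starts given by RefSeq (GRCm38.p6), as a C followed by at least 6 bases that are each C or T, on the transcribed strand, beginning within 10 bases of the start. RefSeq starts were matched by symbol for 65 of the 88 genes, with 77 starts. A tract was found at 31 starts, or 40.3%, against 12.2% of all 32851 starts in that table. The windows below are shown for 9 genes with the largest and the smallest differences between 18 h and naïve retinas, because these are the ends of the response. Rpl39l is among them although it passed the filter only through the 18 h retinas. It was listed at 0 in 8 of 10 naïve retinas, so its place at the upper end is uncertain. Each window holds 30 bases from 15 bases upstream of the start, 5′ to 3′ on the transcribed strand, and capitals mark the tract.
Rps10, chr17:27635230-27635259, minus strand: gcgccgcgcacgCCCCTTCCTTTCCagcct
Rps15a, chr7:118116133-118116162, minus strand: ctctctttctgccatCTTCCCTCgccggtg
Rpl27, chr11:101442230-101442259, plus strand: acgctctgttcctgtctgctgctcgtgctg
Rpl38, chr11:114668565-114668594, plus strand: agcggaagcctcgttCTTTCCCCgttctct
Rpl39l, chr16:10170213-10170242, plus strand: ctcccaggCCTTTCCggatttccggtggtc
Rps27, chr3:90213634-90213663, minus strand: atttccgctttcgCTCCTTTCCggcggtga
Rps12, chr10:23787195-23787224, minus strand: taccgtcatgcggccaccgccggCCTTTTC
Rpl22l1, chr3:28805493-28805522, plus strand: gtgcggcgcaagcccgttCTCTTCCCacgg
Rpl7l1, chr17:46782642-46782671, minus strand: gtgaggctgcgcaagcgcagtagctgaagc

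Both ends of the response thus held starts with and without a tract: 7 of these 9 windows had one. Of the tested genes with an entry, 30 had a tract and 32 did not. Up-regulated DEGs at 18 h, as defined below, were 14 with a tract and 19 without, where 2.84% of all genes tested were. The median log2 fold change was 1.31 with a tract (range 0.10 to 1.98) and 1.12 without (range 0.22 to 1.68). The difference between these classes was not tested. The upper limit of 1.98 is the uncertain value of Rpl39l. A match to these letters describes the window and does not show that the tract is used. A missing match does not show that the mRNA lacks a tract, since annotated starts can differ. GENCODE placed the 5′ end of the gene inside the window shown only for Rpl39l and Rps27. For Rps10, Rps15a, Rpl27, Rpl38, Rps12, Rpl22l1 and Rpl7l1 it lay outside, for Rpl27 at 101442298. This holds for windows with and without a tract.

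In naïve microglia the genes spanned a wide range of levels, although their proteins are needed in similar numbers. RPKM is per length, so levels were set side by side between genes as a rough guide. Reads that may be shared with gene copies limit that comparison. Among the highest naïve medians were those of Rps29 at 234 RPKM (112 to 353), Rplp1 at 223 (135 to 428) and Rps15 at 217.6 (90.4 to 324). These ranges overlapped, so the order among these genes was not larger than the spread between retinas. The lowest among the tested genes were Rpl39l, listed at 0 in 8 of 10 naïve retinas, Rps12l1 at 1.36 RPKM (0.0222 to 10.7) and Rps15a at 3.77 (0.884 to 10.1). Across the 84 genes the middle naïve median was 59.9 RPKM, and it was 59.2 at 4 h, 106.7 at 18 h and 62.0 at 2 weeks. As a description of the ranking over 84 genes, Spearman's rho of the group medians with the naïve medians was 0.97 at 4 h, 0.94 at 18 h and 0.99 at 2 weeks. Many genes lack a clean count of their own, since 59 of the 88 had pseudogene copies in the table, and for 22 of them the copies summed to more than 10% of the gene's RPKM. The highest share was that of Rps15a, its copies summing to 115% of its own level.

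**Figure D1:**
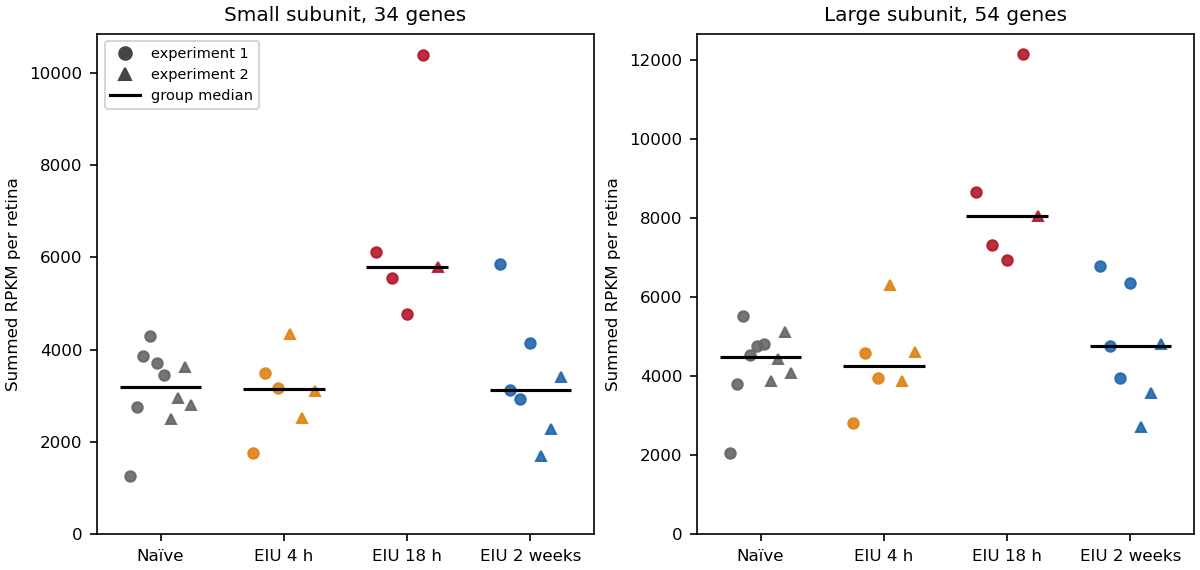
Summed RPKM of the 34 small subunit genes (left) and the 54 large subunit genes (right) in each of the 28 retinas, by group. Circles are retinas of experiment 1, triangles those of experiment 2, and black lines group medians; in both panels the 5 points at 18 h lie above the highest naïve point.

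At 18 h the summed level was higher in every retina. The 88 genes summed to 14762, 12871, 11702, 22550 and 13845 RPKM in the 5 retinas at 18 h and to 3327 to 9382 (median 7820) in naïve retinas. None of the 18 h retinas overlapped the naïve range, and 18 h retina 4 stood well above the other 4. The RPKM of all genes in the table was also higher, at 441474 to 509597 at 18 h and 298434 to 404838 in naïve retinas. As a share of all RPKM, the 88 genes made up 2.60% to 4.42% at 18 h and 1.11% to 2.57% in naïve retinas. On that scale the ranges nearly met. At 4 h the sum of the 88 genes was 4563 to 10629 (median 7424) and at 2 weeks 4412 to 12641 (median 7887). Both of these groups overlapped the naïve range, with 1 of 6 retinas at 4 h and 2 of 7 at 2 weeks above it.

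Against naïve retinas, 40 of the 84 tested genes were up-regulated DEGs at 18 h (limma, Benjamini-Hochberg adjusted p not above 0.05 with a change of 2-fold or more), and 0 were down-regulated. Over all 13164 genes, 2.84% were up-regulated and 1.85% down-regulated DEGs. The adjusted p alone called 42 genes higher, where it called 2.93% of all genes higher, and 66 had an unadjusted p under 0.05, against 17.5% of all genes in either direction. All 84 genes had a higher mean log2 value at 18 h, and the median log2 fold change was 1.10 (middle range 0.79 to 1.36) where that of all genes tested was -0.08. In 31 genes the groups did not overlap, with each 18 h retina above the highest naïve retina, as in 2.05% of all genes tested. Of these 31, 27 were DEGs. The other 4, Rpl18, Rplp2, Rps14 and Rps3, missed the fold or the p threshold.

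**Figure D2:**
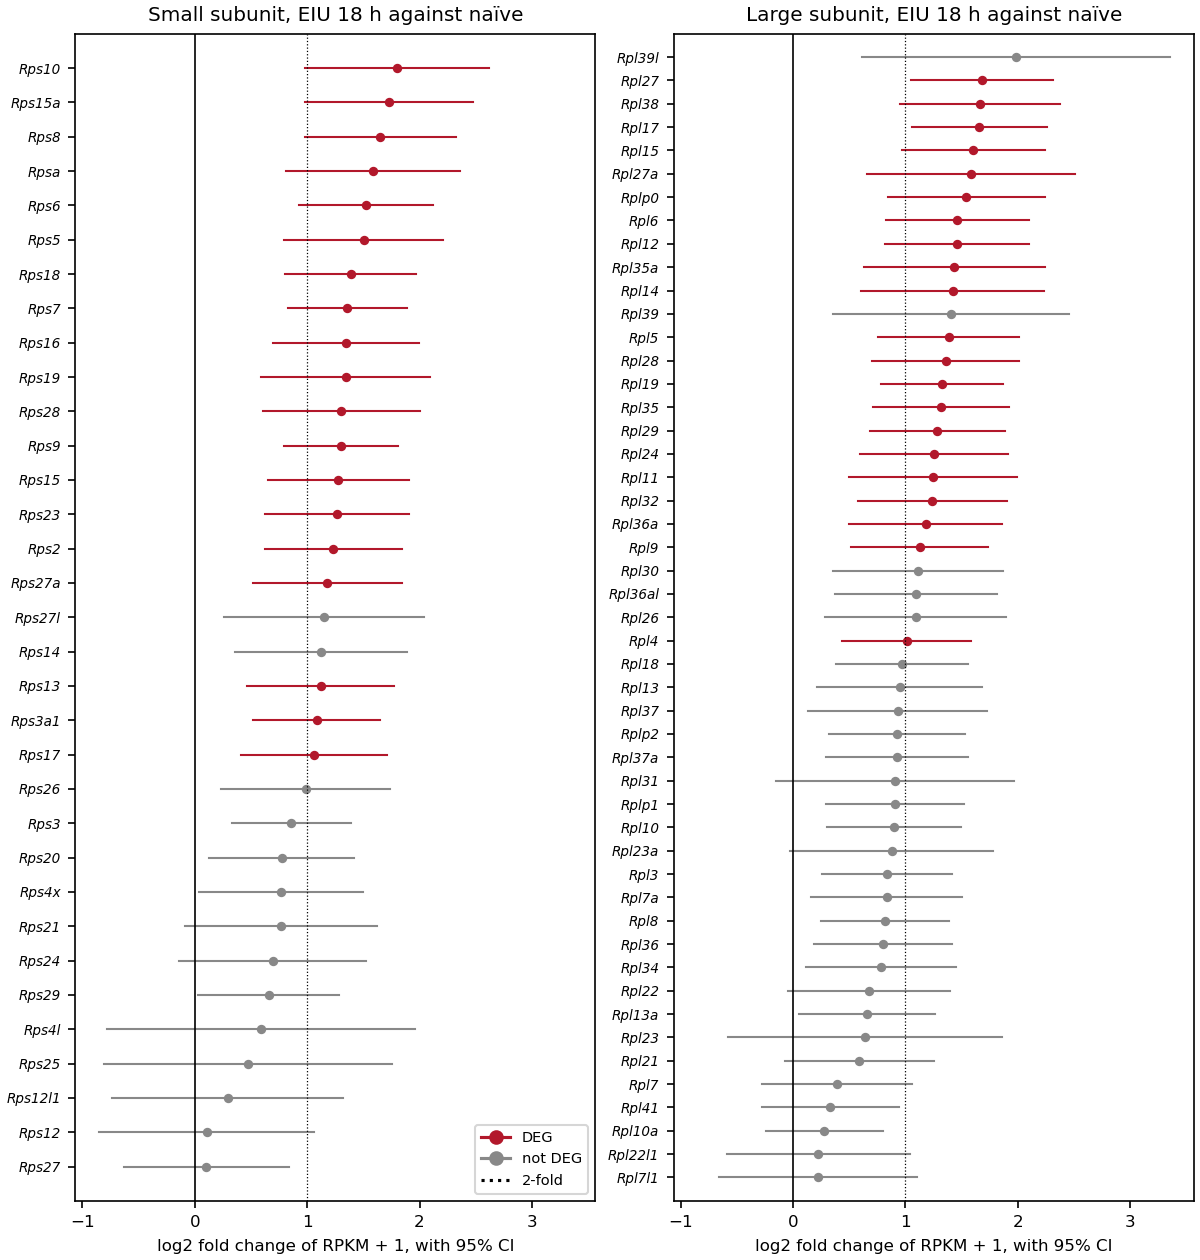
The log2 fold change of RPKM + 1 at 18 h against naïve retinas for 33 small (left) and 49 large subunit genes (right), with 95% confidence intervals from limma. Red marks DEGs, grey the rest and the dotted line a fold change of 2; all 82 points lie above 0, and 65 intervals exclude it.

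The count moved with scaling and with single retinas. The share of all genes called in each refit is not given here. These counts therefore do not show whether a change was particular to the ribosomal genes. With each retina scaled to equal summed RPKM 18 genes were DEGs at 18 h (78 of 84 higher, median 0.78), and 19 after quantile normalization. Without 18 h retina 1 the count was 24, without 18 h retina 4 it was 32, and 22 of the 40 DEGs remained DEGs whichever of the 28 retinas was left out. Within experiment 1 (4 against 6 retinas) 15 genes were DEGs and 81 of 83 were higher. The median was 1.23, where that of all genes was 0.11. Within experiment 2 (1 against 4) 80 of 83 were higher, with a median of 0.96, where that of all genes was -0.19. Removing the 4 retinas with fewer than 7500 genes left 40 DEGs.

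Markers of blood-borne leucocytes that were listed at 0 in all 10 naïve retinas were partly detected at 18 h. This held for 6 of 12 lymphocyte markers, all 6 of them above 0 in at least 1 retina at 18 h, and for 7 of 11 neutrophil markers, 6 of them above 0, as well as for 1 of 10 monocyte markers, which was also above 0. Nkg7, of cytotoxic lymphocytes, was at 5.77 to 86.4 RPKM and was the only gene of these detected in every 18 h retina. Gzma reached 238 RPKM and the T cell gene Cd3d 1.42, each listed at 0 in 2 of 5 retinas, and the neutrophil genes S100a8 and S100a9 reached 9.24 and 5.15, also at 0 in 2 of 5. Ngp was listed at 0 in all 5.

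The 12 lymphocyte markers summed to 20.2 to 81.3 RPKM in naïve retinas, nearly all from Cd79b, and to 41.0 to 367 at 18 h. The 11 neutrophil markers summed to 5.60 to 83.0 RPKM in naïve retinas and 2.86 to 29.1 at 18 h. Most of the neutrophil sum in naïve retinas was Csf3r, at 5.60 to 83.0 RPKM there and 2.86 to 11.7 at 18 h, so the sum does not show the detection of the other markers. The 10 monocyte markers summed to 0.181 to 29.5 RPKM in naïve retinas and 0.304 to 51.3 at 18 h. The part of these cells in the higher ribosomal protein levels was not tested.

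In the small subunit, 19 of 34 genes were up-regulated DEGs at 18 h (55.9%, against 2.84% of all genes), and the median log2 fold change was 1.14. The largest was that of Rps10, a protein of the mRNA entry side of the small subunit. Its RPKM was 97.9, 58.8, 63.6, 54.5 and 75.03 at 18 h and 2.07 to 37.9 (median 22.2) in naïve retinas. No 18 h retina fell in the naïve range, and the log2 fold change was 1.80 ± 0.40 (SE, limma adjusted p = 0.0053). Rps15a, a core protein of the subunit, measured 18.2, 11.9, 14.1, 12.2 and 15.2 RPKM at 18 h and 0.884 to 10.1 in naïve retinas. Again the groups did not overlap, with a log2 fold change of 1.73 ± 0.37 (limma adjusted p = 0.0035). Rps6, the subunit's main phosphorylated protein and a common readout of mTOR signalling, was at 404, 385, 337, 1014 and 413 RPKM at 18 h and at 73.9 to 228 in naïve retinas. There was no overlap, and 18 h retina 4 was far above the other 4. Its log2 fold change was 1.52 ± 0.29 (limma adjusted p = 0.0011).

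Rpsa, which is also known as a laminin receptor, was at 111, 67.2, 76.4, 27.02 and 101 RPKM at 18 h and at 5.50 to 45.8 (median 24.8) in naïve retinas. Here 18 h retina 4 was the lowest and fell inside the naïve range, and the log2 fold change was 1.59 ± 0.38 (limma adjusted p = 0.010). Rps3, which also has a role in DNA repair, was at 104, 96.4, 85.1, 99.0 and 91.0 RPKM at 18 h against 28.3 to 77.0. These groups did not overlap, yet the log2 fold change of 0.86 ± 0.26 did not reach the fold threshold. Rps27a is made as a fusion with ubiquitin. It was at 148, 117, 112, 204 and 151 RPKM at 18 h against 25.2 to 120.0, and 3 of 5 retinas lay above all naïve retinas (log2 fold change 1.18 ± 0.33, limma adjusted p = 0.028). Rps15, whose protein lies near the decoding site and whose naïve median RPKM was among the highest, had a log2 fold change of 1.28 ± 0.31 (limma adjusted p = 0.010).

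Some small subunit genes did not pass. Rps27 was at 99.3, 67.4, 81.7, 95.9 and 91.6 RPKM at 18 h and 32.8 to 149.9 (median 86.0) in naïve retinas, inside the naïve range throughout. Its log2 fold change was 0.10, with a 95% interval of -0.63 to 0.83. Rps12 was at 17.2, 16.3, 15.7, 33.02 and 20.8 RPKM at 18 h against 6.38 to 46.6, with a log2 fold change of 0.11 and an interval of -0.85 to 1.07. Rps29, with 0.66 (0.03 to 1.29), and the pseudogene Rps12l1, with 0.29 (-0.73 to 1.32), also did not pass.

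In the large subunit, 21 of 50 genes were up-regulated DEGs at 18 h (42.0%, against 2.84% of all genes), with a median log2 fold change of 1.05. Rpl27 was the largest of these. It was at 196, 177, 161, 153 and 161 RPKM at 18 h and at 23.5 to 80.5 (median 54.1) in naïve retinas, well apart, with a log2 fold change of 1.68 ± 0.31 (limma adjusted p = 0.00077). Rpl38, known for its effect on translation of Hox mRNAs, was at 434, 393, 305, 977 and 348 RPKM at 18 h against 68.5 to 217. The groups were apart again, and 18 h retina 4 was the highest (log2 fold change 1.66 ± 0.35, limma adjusted p = 0.0031). Rpl5 and Rpl11 bind the 5S rRNA and, when free of the ribosome, the p53 regulator Mdm2. Rpl5 was at 112, 81.4, 95.01, 77.1 and 109 RPKM at 18 h against 21.9 to 67.0, without overlap (log2 fold change 1.38 ± 0.31, limma adjusted p = 0.0051). Rpl11 was at 72.1, 56.1, 63.5, 91.9 and 76.8 RPKM against 16.1 to 60.6, with 1 retina inside the naïve range. Its log2 fold change was 1.25 ± 0.37 (limma adjusted p = 0.043), and it was a DEG in 16 of the 28 fits that left out a retina.

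The stalk proteins Rplp0, Rplp1 and Rplp2 recruit the elongation factors to the large subunit. Rplp0 was at 558, 429.6, 471, 224 and 539 RPKM at 18 h and 50.7 to 265 in naïve retinas, and 18 h retina 4 alone fell inside the naïve range (log2 fold change 1.54 ± 0.34, limma adjusted p = 0.0049). Rplp1 and Rplp2 had log2 fold changes of 0.91 ± 0.30 and 0.92 ± 0.30 with limma adjusted p of 0.080 and 0.068, so neither was a DEG. Rplp2 nevertheless showed no overlap between 18 h (84.8 to 113 RPKM) and naïve retinas (24.0 to 80.7). Rpl13a, which leaves the ribosome to silence inflammatory mRNAs in interferon-treated myeloid cells, was at 113, 100.2, 81.1, 90.2 and 88.5 RPKM at 18 h against 28.0 to 92.5. Its log2 fold change of 0.66 ± 0.30 did not pass (limma adjusted p = 0.23).

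**Figure D3:**
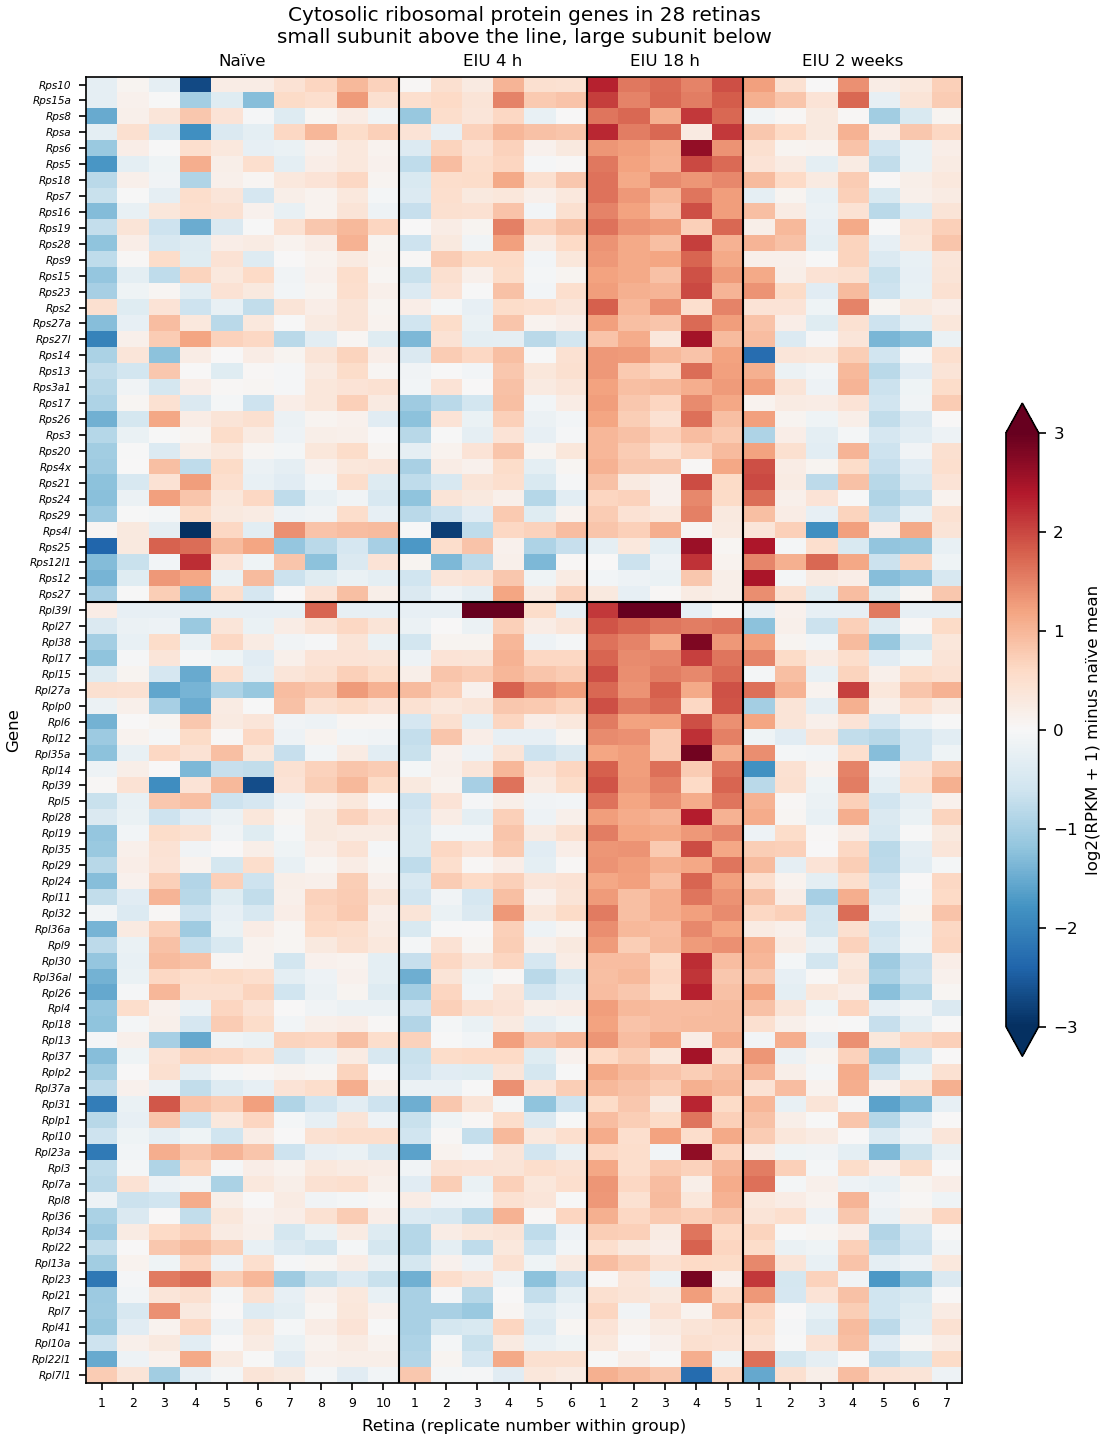
The difference of log2(RPKM + 1) from the naïve mean for 82 tested genes (rows, ordered within each subunit by their log2 fold change at 18 h) in the 28 retinas (columns, by group). Red is above and blue below the naïve mean, and colours are cut at 3; in the 5 retinas at 18 h, 77 to 83 of all 84 tested genes are above it.

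The subunits were compared within each retina. At 18 h the median deviation from the naïve mean over the small subunit genes minus that over the large was -0.02 to 0.33 on the log2 scale (median 0.05), and in naïve retinas it was -0.22 to 0.32. The small subunit's share of the summed RPKM was 40.7% to 46.1% at 18 h, 38.1% to 48.6% in naïve retinas, 38.5% to 44.5% at 4 h and 38.5% to 46.4% at 2 weeks. These ranges overlap, and 18 h retina 4 and 2-week retina 1, both with few detected genes, held the highest share in their groups. Over the 84 genes the log2 fold change at 18 h had a Spearman's rho of -0.17 with the naïve level, 0.03 with transcript length and 0.04 with GC content, as a description across genes.

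At 4 h the levels overlapped those of naïve retinas. By limma 0 of 84 genes were DEGs, while 3.68% of all genes were up-regulated and 4.39% down-regulated DEGs. At an unadjusted p under 0.05 there were 3 genes, where 20.5% of all genes had one. The median log2 fold change was 0.14 (small subunit 0.20, large 0.08), with 54 of 84 genes higher, and it was -0.14 with equal summed RPKM, so its direction depended on the scaling. The 3 genes, all of them higher, were Rpl15, Rpl27a and Rps15a, with log2 fold changes of 0.72 ± 0.29, 1.03 ± 0.43 and 0.77 ± 0.35. Rpl15 was at 35.5 to 63.3 RPKM at 4 h and 10.2 to 52.1 in naïve retinas, with 5 of 6 retinas above the naïve range. Rpl27a, a large subunit protein, was at 8.14 to 27.8 RPKM (median 17.2) at 4 h and 1.85 to 19.3 (median 10.6) in naïve retinas. For Rpl27a 2 of 6 retinas lay above the naïve range and for Rps15a 1 of 6, so the ranges of all 3 genes overlapped. Rpl39l had the largest difference, 1.19 ± 0.63, and did not pass. The lowest differences were those of Rpl7 (-0.58 ± 0.31), Rps12l1 (-0.53 ± 0.47) and Rps27l (-0.47 ± 0.41), and none of these passed.

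Between 4 h and 18 h, 22 of 84 genes rose to DEG level and 0 fell, where 2.92% of all genes rose. The median log2 difference was 1.00, with 82 of 84 genes higher at 18 h. In 31 genes the 18 h retinas lay wholly above the 4 h retinas, as in 4.84% of all genes. The median of all genes was 0.02 here. The count of 22 became 8 without 4 h retina 1, 14 without 4 h retina 3, 13 without 18 h retina 1, 11 without 18 h retina 4 and 14 without 18 h retina 5. It was 3 both after quantile normalization and after median-of-ratios scaling, and 1 within experiment 1. The median log2 difference within experiment 1 was 1.21, where that of all genes was 0.15. The share of all genes called in these refits is not given here.

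At 2 weeks the levels again overlapped those of naïve retinas. By limma 0 of 84 genes were DEGs against naïve retinas (0.0076% of all genes were up-regulated DEGs), and 3 had an unadjusted p under 0.05, where 2.87% of all genes did. The median log2 fold change was 0.15 with 64 of 84 genes higher. The 3 genes were Rpl27a (1.01 ± 0.41), Rps15a (0.70 ± 0.33) and Rpl37a (0.60 ± 0.28). At the other end were Rpl23a (-0.36 ± 0.40), Rpl12 (-0.36 ± 0.28) and Rpl31 (-0.30 ± 0.47). Rps12l1 was at 0.75 ± 0.45. The experiments differed here in direction: within experiment 1 (4 against 6 retinas) 75 of 83 genes were higher with a median of 0.48, and within experiment 2 (3 against 4) 4 of 83 were higher with a median of -0.31. A test of that difference in limma called 0 of 84 genes at an adjusted p of at most 0.05 and 8 at an unadjusted p under 0.05, against 2.02% of all genes. The summed RPKM in experiment 1 at 2 weeks was 12641, 7887, 6889 and 10500.2, and in experiment 2 it was 4412, 5859 and 8219.

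Against 18 h, 18 of 84 genes were lower at 2 weeks (limma DEGs), where 1.55% of all genes were, and 0 were higher. In 21 genes the 2-week retinas lay wholly below the 18 h retinas, as in 2.07% of all genes. The median log2 difference was -0.96, with 81 genes lower. Rpl27 fell by 1.79 ± 0.33 on the log2 scale (limma adjusted p = 0.0012), from 153 to 196 RPKM at 18 h to 21.5 to 86.0 (median 53.3) at 2 weeks. Rpl12, a protein of the stalk base, went from 28.9 to 79.9 RPKM down to 8.85 to 22.1 (median 12.97), a fall by 1.82 ± 0.34 (limma adjusted p = 0.0011). Rps6 fell by 1.39 ± 0.31 (limma adjusted p = 0.0091). In Rpl27 and Rpl12 the groups were apart, as they were in Rps6, whose 2-week retinas ranged from 108 to 291 RPKM. The count of 18 was 10 without 18 h retina 1, 18 h retina 5 or 2-week retina 5, and 11 without 18 h retina 2. It was 7 with equal summed RPKM and 0 within experiment 1. The median log2 difference within experiment 1 was -0.72, where that of all genes was -0.02. The share of all genes called in these refits is not given here.

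Paralogues were set side by side in 8 pairs, of which 6 had both genes past the filter. Rpl10l and Rpl3l, paralogues known from testis and striated muscle, stayed under 1 RPKM in all 28 retinas, against naïve medians of 90.3 for Rpl10 and 59.3 for Rpl3. Rpl36al, an autosomal retrocopy of the X-linked Rpl36a, was above it in 28 of 28 retinas, with naïve medians of 144 and 21.4 RPKM. Rpl22l1 was above Rpl22, which is known to repress it, in 27 of 28 (25.2 and 11.7). Rps27l, a p53-inducible relative of Rps27, was above it in 25 of 28 (204 and 86.0). In the other direction, Rpl39l was above Rpl39 in 1 retina, Rpl7l1 above Rpl7 in 5 and the pseudogene Rps4l above Rps4x in 7.

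For each pair the difference in mean log2 ratio of RPKM + 1 from naïve retinas was tested at each of the 3 times by a two-sided exact permutation test. Of 18 tests, 0 passed an adjusted p of 0.05 and 0 had an unadjusted p under 0.05. The 3 smallest p belonged to Rpl22l1 and Rps27l. Rpl22l1 to Rpl22 was higher by 0.51 at 4 h (exact permutation p = 0.057, adjusted 0.56) and differed by -0.45 at 18 h (exact permutation p = 0.094, adjusted 0.56). The 4 h ratios were 0.76 to 1.84, the 18 h ratios -0.01 to 0.67 and the naïve ratios 0.00 to 1.48. Rps27l to Rps27 was higher by 1.05 at 18 h (exact permutation p = 0.080, adjusted 0.56), with ratios of 1.54 to 3.46 against 0.22 to 3.68 in naïve retinas. Rps27l itself was at 342, 407, 240.3, 1065 and 363 RPKM at 18 h against 46.5 to 432, and its log2 fold change of 1.15 ± 0.43 was not called (limma adjusted p = 0.14).

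**Figure D4:**
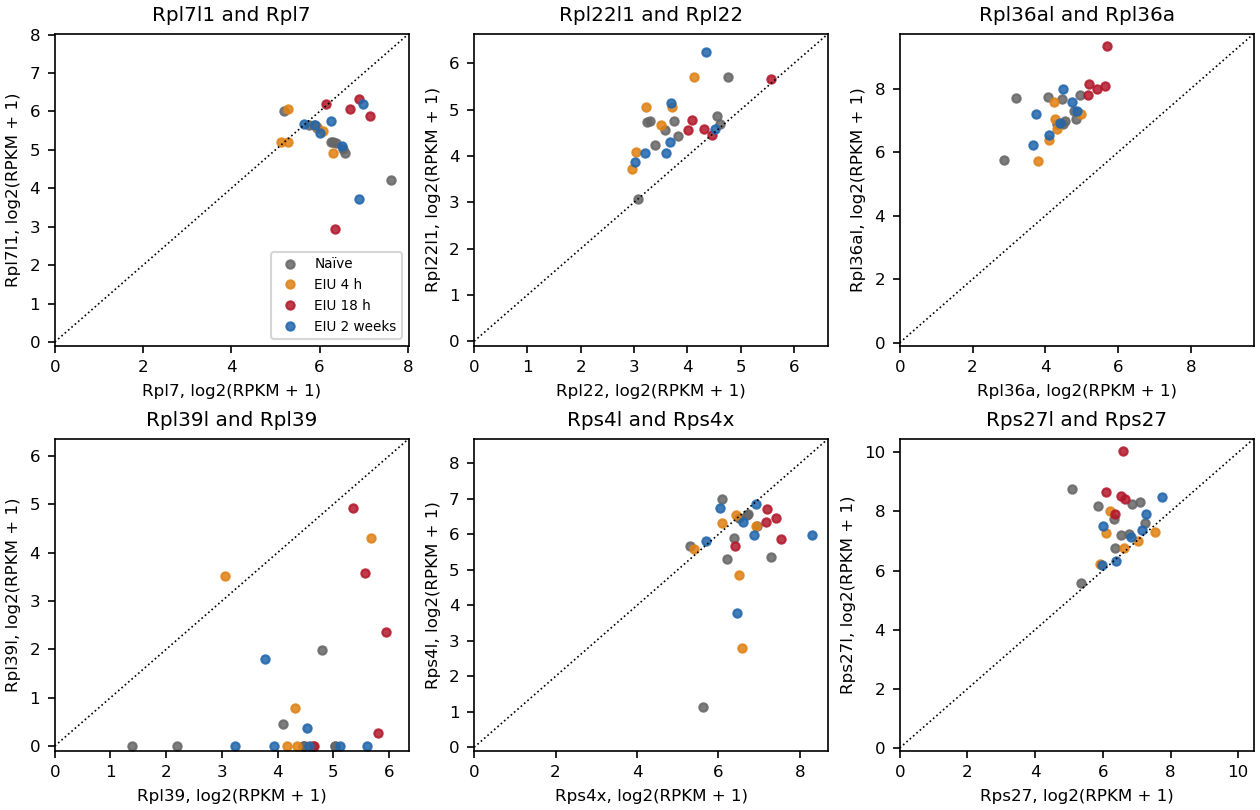
RPKM of each paralogue (vertical, log2 of RPKM + 1) against its partner (horizontal, the same scale) in the 28 retinas, coloured by group, for the 6 pairs with both genes past the filter. The dotted line marks equal levels; Rpl36al lies above it in all 28 retinas, and Rpl39l lies below it in all but 1.

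Taken one at a time, 1 paralogue was a DEG at 18 h. Rpl36a rose, with a log2 fold change of 1.18 ± 0.33 (limma adjusted p = 0.033), and Rpl36al was at 1.09 ± 0.35 (limma adjusted p = 0.069). Rpl22l1 was at 0.23 (95% interval -0.59 to 1.04) and Rpl22 at 0.68 (-0.04 to 1.40). Rpl7l1, a nucleolar relative of Rpl7, was at 78.7, 72.5, 66.3, 6.73 and 57.4 RPKM at 18 h and 17.7 to 63.7 in naïve retinas. Among these 18 h retina 4 was low, and 3 of the other 4 lay above the naïve range, and its log2 fold change was 0.22 ± 0.43. Rpl39l had the largest log2 fold change of all 84 genes, 1.98 ± 0.67 (limma adjusted p = 0.088), from 4.16, 29.4, 10.9, 0 and 0.213 RPKM at 18 h. It was listed at 0 in 8 of 10 naïve retinas and reached 18.6 RPKM at 4 h, so this fitted value is not a measure of its fold. Rpl39 was at 1.40 ± 0.51 (limma adjusted p = 0.12). Rpl7, Rpl3, Rpl10, Rps4x and Rps4l were at 0.39, 0.84, 0.90, 0.77 and 0.59, and 0 of these 5 were DEGs.

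Other genes of protein synthesis were taken from lists. Of the ribosomal genes outside the symbol rule, Rack1, a scaffold on the small subunit, rose with a log2 fold change of 1.84 ± 0.25 (limma adjusted p = 1.5e-05). Fau, whose product is a fusion of a ubiquitin-like protein with a small subunit protein, was at 0.73 ± 0.34 and did not pass. Of 63 ribosome biogenesis genes, 7 were DEGs at 18 h, all up-regulated (11.1%, against 2.84% of all genes tested; median 0.88). Nop56, of the snoRNP that methylates rRNA, was the largest at 2.15 ± 0.42 (limma adjusted p = 0.0013), and Utp3 the smallest at -0.80 ± 0.62, which did not pass. At 4 h, 9 of these 63 genes were up-regulated DEGs (14.3%, against 3.68% of all genes; median 0.69), Nop56 among them at 1.48 ± 0.39. The difference between the lists at 4 h was not tested.

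Of 35 initiation factor genes, 4 were up-regulated DEGs at 18 h (11.4%, against 2.84% of all genes; median 0.61), led by Eif2s1, a subunit of the factor that brings in the initiator tRNA, at 1.99 ± 0.44 (limma adjusted p = 0.0056). The lowest was Eif4g3 at -0.61 ± 0.32, which did not pass. Of 14 elongation and associated genes, 2 were up-regulated DEGs (14.3%; median 0.66). Their largest change was that of Eif5a, at 2.16 ± 1.00, and their smallest that of Eef2k, the kinase of elongation factor 2, at -0.71 ± 0.39, and neither passed. Of 15 RNA polymerase I genes 0 were DEGs at 18 h by limma (2 at an unadjusted p under 0.05, or 13.3%, against 17.5% of all genes), and the median was 0.11, from -0.52 for Ubtf to 1.25 for Polr1c. The list of TOP mRNA regulators held 24 tested genes, namely mTOR components, RNA-binding proteins and growth regulators such as Myc. Not all of them act on TOP mRNAs themselves. Of the 24, 0 were DEGs (4 at an unadjusted p under 0.05, or 16.7%, near the share of all genes), and the median was -0.17. Myc, a driver of ribosome synthesis, was at 1.45 ± 0.71, and Tia1, which binds TOP mRNAs in stress, at -1.05 ± 0.33 (limma adjusted p = 0.058).

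**Figure D5:**
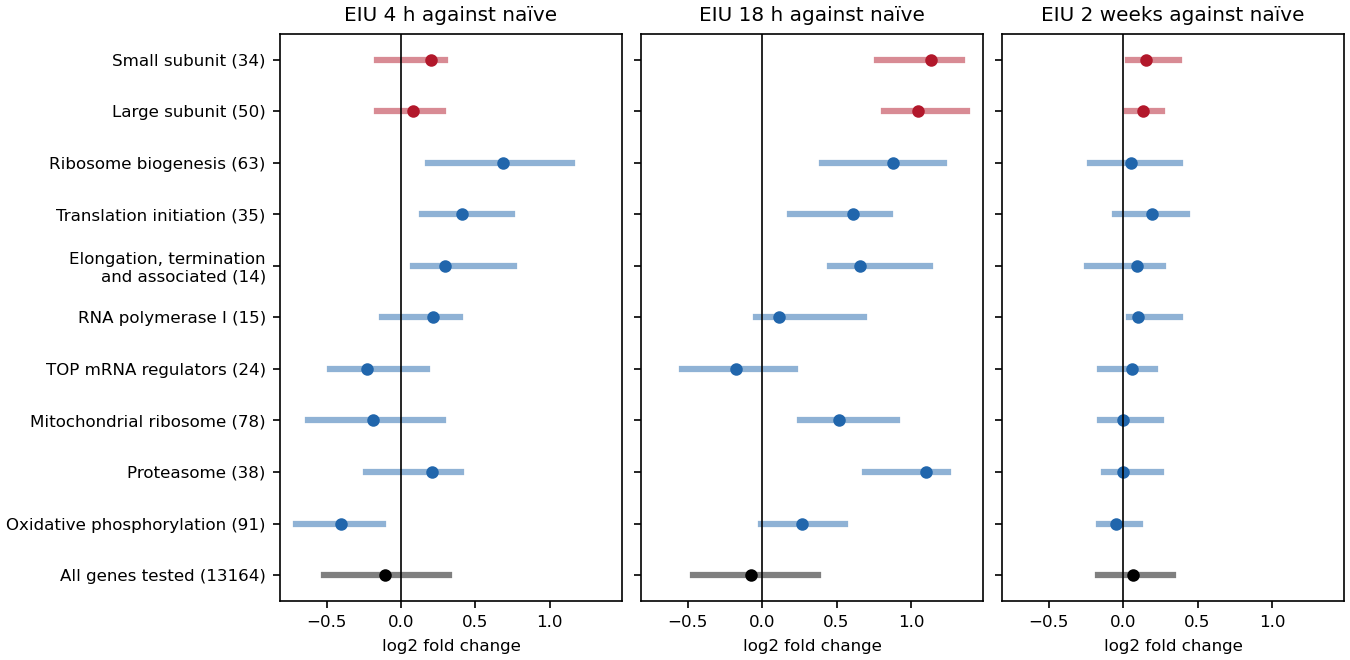
The median log2 fold change against naïve retinas (points) and the interquartile range (bars) for the ribosomal protein genes of each subunit, 8 other lists and all genes tested, in 1 panel for each time after LPS. Numbers of genes tested stand in parentheses; at 18 h the small and large subunit medians are 1.14 and 1.05, and that of the proteasome is 1.10.

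Lists outside cytosolic translation were read beside these. Of 38 proteasome genes, 10 were up-regulated DEGs at 18 h (26.3%, against 2.84% of all genes), with a median of 1.10 and all 38 higher. The mitochondrial ribosome had 2 DEGs of 78 (2.56%, near the share of all genes; median 0.52). Oxidative phosphorylation had 0 of 91 by limma, and 8 at an unadjusted p under 0.05 (8.79%, below the 17.5% of all genes; median 0.27). Of 60 tested ribosomal protein pseudogene entries, 14 were up-regulated DEGs (23.3%; median 0.77). These entries summed to 4.34% to 5.75% of the ribosomal protein RPKM at 18 h and to 3.82% to 5.96% in naïve retinas, and these ranges overlapped. Reads of a gene and its copies may have been divided between them.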

How the data were processed

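The authors sequenced mRNA of sorted microglia (SMART-Seq v4 and Nextera XT), trimmed reads, aligned them to mm10 with STAR 2.5.3a and quantified Ensembl transcripts with the expectation-maximisation method of Partek, which can divide a read among gene copies. They deposited RPKM per gene and retina, with the number of alignments. The authors' DEG tables hold their own comparisons (p-values, ratios, fold changes and F statistics) and were not used.

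RPKM was transformed to log2(RPKM + 1), so fold changes of low genes are understated. The filter kept genes reaching an RPKM of 1 in 5 or more retinas. All 28 retinas entered 1 limma 3.58.1 fit (R 4.3.3) of the 4 groups with a mean-variance trend, checked on simulated data. P-values were adjusted by Benjamini-Hochberg over all genes tested. Confidence intervals are at 95%. DEGs were called at an adjusted p not above 0.05 with a change of 2-fold or more. Paralogue ratios were compared by exact permutation tests (Python 3.11.15), adjusted over all 18. Depth limits low genes, and an exact 0 may be a product of the estimation.

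Genes and lists were chosen with earlier results of these data known. Named genes were the 5 highest and 3 lowest in naïve retinas, the 5 largest and smallest log2 fold changes at 18 h, 3 each at 4 h and 2 weeks, paralogue pairs, 10 genes named in advance (Rplp0, Rplp1, Rplp2, Rpsa, Rps6, Rps3, Rpl13a, Rps27a, Rpl5, Rpl11) and the extremes of each translation list. Others were named after their values were seen, and a few genes are not reported here. Alternatives covered the pseudocount, filter, scaling, covariates, thresholds and single retinas. Start sequences came from RefSeq (GRCm38.p6) and positions from GENCODE M21.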

Additional observations from a re-analysis of the deposited data

Results flagged for a closer look

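Dixon's ratio at the 95% level was applied on the log2 scale to the summed RPKM and to 36 named genes in each of the 4 groups, 148 sets of values in all. It marked 24, where about 1 in 20 are marked by chance, and the marks gathered in a few retinas.

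Naïve retina 1 was low. Its summed RPKM was 3327, where the other naïve retinas had 6381 to 9382. It was also the lowest for Rpl12 (7.23 RPKM, others 14.8 to 26.1), Rpl13a (28.0, others 52.5 to 92.5), Rpl23a (47.7, others 137 to 449), Rpl36al (52.7, others 116 to 223), Rpl38 (68.5, others 120.2 to 217), Rps29 (112, others 202 to 353) and Rps6 (73.9, others 136 to 228). This retina had 11825 genes at an RPKM of at least 1, the most of all 28. Naïve retina 4, with the fewest at 6552, was the lowest for Rps10 (2.07 RPKM, others 15.5 to 37.9), Rps4l (1.19, others 38.2 to 126) and Rpsa (5.50, others 15.7 to 45.8). In naïve retina 8 Rpl39l was at 2.96 RPKM, others 0 to 0.380.

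At 18 h, retina 4 was apart in both directions. It was the highest for Rpl22l1 (49.7 RPKM, others 20.8 to 26.2), Rpl23a (1347, others 199.8 to 329.6), Rpl31 (356, others 88.2 to 126), Rpl36al (643, others 221 to 284), Rps12l1 (10.5, others 0.619 to 1.72) and Rps6 (1014, others 337 to 413). It was the lowest for Rpl7l1 (6.73, others 57.4 to 78.7) and Rplp0 (224, others 429.6 to 558). It had 6969 genes at an RPKM of at least 1, where the other retinas at 18 h had 9499 to 10220.

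At 4 h, Rpl3 was at 49.7 RPKM in retina 1, others 69.6 to 77.2. At 2 weeks, Rps12 was at 104 RPKM in retina 1, others 6.94 to 22.4, Rps4l was at 12.8 in retina 3, others 55.2 to 114, and Rpl39l was at 2.501 in retina 5, others 0 to 0.286. The source of these differences was not tested.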

How the results depend on the processing

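The 40 DEGs at 18 h became 18 with equal summed RPKM, 20 with equal summed RPKM of the other genes, 19 after quantile normalization, 15 in experiment 1 alone and 21 at an adjusted p of at most 0.01. The other 14 of 19 alternatives stayed within 1.5 times, and leaving out single retinas gave 24 to 41. At 2 weeks the count was 0 throughout, and for paralogue ratios too. At 4 h it was 0, and 1 with a replicate block, median-of-ratios scaling or genes detected as a covariate. The 18 h median over all genes tested was -0.08, and -0.26 with equal summed RPKM, relative to which the ribosomal median was 1.04 higher. Between 4 h and 18 h the 22 became 12 with the replicate block, 3 after quantile normalization and 3 after median-of-ratios scaling, 1 in experiment 1, 5 at an adjusted p of at most 0.01 and 34 with genes detected as a covariate, and 8 to 26 with single retinas left out. Between 18 h and 2 weeks the 18 became 10 with the replicate block, 7 with equal summed RPKM, 7 with equal summed RPKM of the other genes, 6 after quantile normalization, 0 in experiment 1 and 7 at an adjusted p of at most 0.01, and 10 to 23 with single retinas left out. The cause of these changes was not tested, and experiment 1 holds fewer retinas than the whole series. Shares of all genes called under each alternative are not given here. The changes in count are therefore not shown to be particular to the ribosomal genes. Replicate numbers were not stated to pair retinas: deviations of same-numbered retinas correlated at a median of 0.04 (-0.33 to 0.70, 34 pairs), and the replicate block left 40 DEGs at 18 h. Both alternatives on genes detected were chosen after seeing the data. RPKM carries no read counts, so counting error was not separated from the spread between retinas.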
